A study of Mus musculus with 14 samples.

Results

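Trimethylation of lysine 4 of histone H3 (H3K4me3) was compared between day 10 and day 0 of chondrogenic differentiation of ATDC5 cells, with 2 peak lists on each day. Peaks of the 4 lists were pooled and merged where they overlapped or touched, which gave 30657 regions. A region was counted as gained when both day 10 lists and neither day 0 list covered it, and as lost in the opposite case. By this rule 775 regions were gained and 10 were lost. These lists belong to 4 of the 14 samples of a study that mapped H3K4me3 and the transcription factor RUNX2 by chromatin immunoprecipitation with sequencing on days 0, 3 and 10.

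ATDC5 is a mouse line derived from the AT805 teratocarcinoma, and it forms cartilage-like nodules when differentiated. Day 10 cells had been spotted as dense droplets and cultured with β-glycerophosphate and ascorbate-2-phosphate for 10 days, and day 0 cells were undifferentiated. All libraries of the comparison came from this 1 line and from the same H3K4me3 antibody, with formaldehyde-fixed, sonicated chromatin. The labels number the libraries of a day 1 and 2 without saying whether each was a culture of its own, and the spread within a day may for that reason be only technical. In bulk chromatin, a peak in a part of the cells cannot be told apart from a weaker peak in all of them.

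H3K4me3 is placed by SET1 and MLL methyltransferase complexes, is bound by parts of the transcription machinery and remodelling complexes, and is strongest just downstream of the starts of active and poised genes. Promoters rich in CG dinucleotides carry it in most cell types, whereas CG-poor promoters of tissue-specific genes tend to carry it where the gene is used. Long stretches of the mark are known from genes that define a cell's identity. In cartilage, chondrocytes driven by SOX9 first make collagen II and aggrecan, and later enlarge, mineralise their matrix and pass to the hypertrophic state in which RUNX2 acts.

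The 6 promoter stretches below show the range of sequence at the genes on which the results turn. Acan was gained at a CG-rich start, Spp1, Col9a1 and Ibsp were gained at CG-poor starts, and the regions of Pth1r and Frzb were marked on both days and widened. Each stretch is the 250 bases before a transcript start, read 5′ to 3′ on the gene's strand, from RefSeq promoters of the build GRCm38.p6, with CG dinucleotides in capitals.
Acan (chr7:79052976-79053225, + strand): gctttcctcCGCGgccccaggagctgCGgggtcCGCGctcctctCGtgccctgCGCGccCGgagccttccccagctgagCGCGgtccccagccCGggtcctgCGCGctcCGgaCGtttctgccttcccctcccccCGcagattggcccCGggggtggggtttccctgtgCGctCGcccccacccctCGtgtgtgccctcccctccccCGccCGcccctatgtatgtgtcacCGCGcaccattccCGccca
Spp1 (chr5:104434861-104435110, + strand): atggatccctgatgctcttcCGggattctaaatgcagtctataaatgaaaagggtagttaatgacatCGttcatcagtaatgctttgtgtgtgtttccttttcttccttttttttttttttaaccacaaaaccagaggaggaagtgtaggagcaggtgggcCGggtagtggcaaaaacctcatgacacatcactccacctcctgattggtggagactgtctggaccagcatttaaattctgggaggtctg
Col9a1 (chr1:24177360-24177609, + strand): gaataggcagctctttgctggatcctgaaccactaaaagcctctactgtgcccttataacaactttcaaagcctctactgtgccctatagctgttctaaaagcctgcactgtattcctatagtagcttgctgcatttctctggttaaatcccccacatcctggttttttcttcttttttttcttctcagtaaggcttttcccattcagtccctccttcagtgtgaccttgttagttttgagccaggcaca
Ibsp (chr5:104299037-104299286, + strand): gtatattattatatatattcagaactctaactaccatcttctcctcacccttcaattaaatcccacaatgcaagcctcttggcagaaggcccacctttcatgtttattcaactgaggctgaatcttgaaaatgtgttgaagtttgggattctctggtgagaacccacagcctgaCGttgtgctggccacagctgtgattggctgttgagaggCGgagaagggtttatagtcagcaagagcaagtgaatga
Pth1r (chr9:110742611-110742860, - strand): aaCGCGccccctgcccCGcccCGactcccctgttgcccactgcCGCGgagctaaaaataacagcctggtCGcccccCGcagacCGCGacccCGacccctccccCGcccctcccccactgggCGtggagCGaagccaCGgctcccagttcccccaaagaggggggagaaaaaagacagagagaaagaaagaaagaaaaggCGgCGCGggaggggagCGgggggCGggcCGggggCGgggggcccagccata
Frzb (chr2:80447397-80447646, - strand): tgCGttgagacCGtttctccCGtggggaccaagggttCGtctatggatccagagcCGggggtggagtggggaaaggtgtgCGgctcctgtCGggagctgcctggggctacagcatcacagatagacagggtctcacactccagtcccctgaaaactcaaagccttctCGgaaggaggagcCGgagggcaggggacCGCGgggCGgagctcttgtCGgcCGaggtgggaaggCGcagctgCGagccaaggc

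The stretch before Acan held 26 CG dinucleotides and those before Pth1r and Frzb held 22 and 16. The stretch before Spp1 held 3, that before Ibsp 2 and that before Col9a1 0. The stretches of Acan, Pth1r and Frzb lay inside their H3K4me3 regions. That of Spp1 lay partly inside, since its region began at position 104435075 of chromosome 5. The stretches of Col9a1 and Ibsp lay outside, and their regions began downstream of the start, at position 24177703 of chromosome 1 and position 104299408 of chromosome 5.

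The 4 lists differed more in length between the libraries of a day than between the means of the days. The day 10 lists held 15219 peaks in number 1 and 29022 in number 2, against 13765 in number 1 and 20863 in number 2 on day 0. Covered length was 17.3 and 31.9 Mb on day 10, against 14.5 and 21.3 Mb on day 0, so that number 2 was the longer list on both days. The mean number of peaks gave a day 10 over day 0 log2 ratio of 0.35, with p = 0.667 in a two-sided exact permutation test in which 2 against 2 libraries cannot give a p under 0.33. The ratio changed direction, to -0.19, without day 10 library number 2. The share of peaks overlapping 1 kb either side of a gene start was 78.1% and 46.6% in the day 10 lists, against 81.8% and 66.1% in the day 0 lists. Of the regions of day 10 list number 1, 99.2% were also in day 10 list number 2, and 98.1% of those of day 0 list number 1 were in day 0 list number 2. Read depth was not known, and a missing peak shows only that none was called at that library's depth.

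Gains outnumbered losses by far between the days, but the same calls made crosswise show how much of this the length of a list can give. Of the 30657 regions, 2.53% were gained on day 10 and 0.0326% were lost. When the lists were paired crosswise by number, 1766 regions, or 5.76%, were covered in both number 2 lists and in neither number 1 list, and 0 the other way round. When day 10 number 2 was paired with day 0 number 1, 49 regions, or 0.16%, were covered in that pair alone, and 3 in the other pair alone. The 775 gains therefore stood below the count that followed list length and above the count of the other crosswise arrangement. With the lists cut to equal numbers of their best peaks, 506 regions were gained and 81 lost between the days, while the crosswise counts were 285 and 118 by number, and 61 and 76 in the mixed pairing. Of the 775 gained regions, 168 were gained under equal numbers too. Leaving out 1 list relaxes the rule to 3 lists. The gained regions then came to 13028 without day 10 list number 1 and to 2398 without day 0 list number 2. They came to 1052 without day 10 list number 2 and to 853 without day 0 list number 1. The cause of these differences was not tested.

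**Figure D1:**
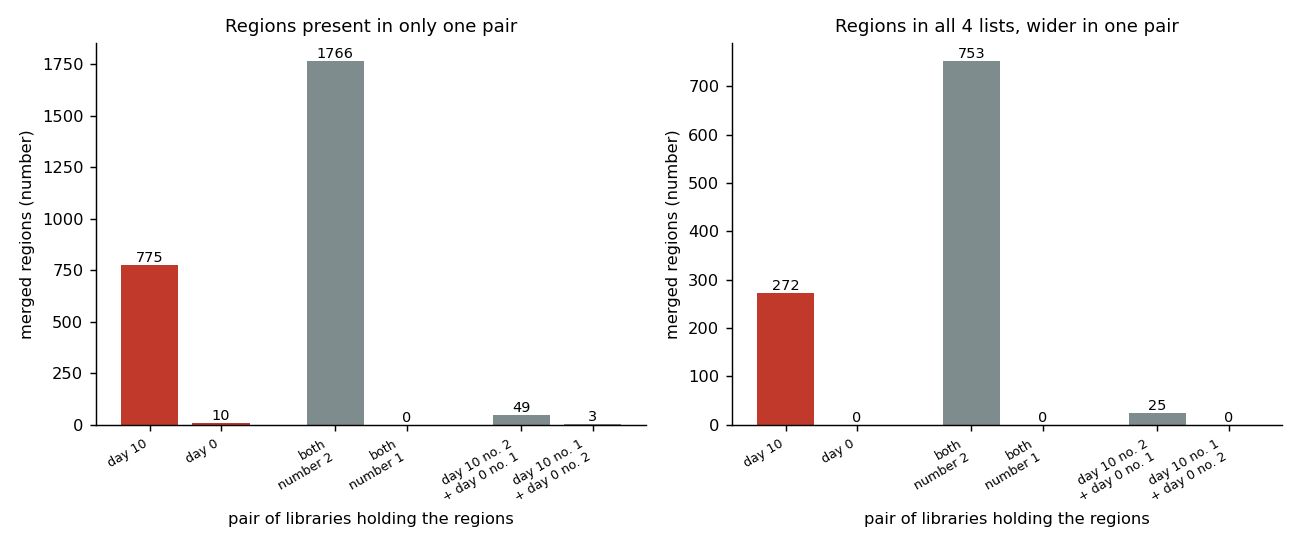
Number of merged regions present in only 1 pair of lists (left) and number of regions in all 4 lists whose covered length was at least 1.5 times greater in 1 pair (right). Bars in red compare day 10 with day 0, and bars in grey are the crosswise pairings of the same 4 libraries; 775 regions were gained on day 10, against 10 lost, and 1766 were found only in both number 2 lists.

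Gained regions were spread over gene starts, gene bodies and the space between genes. Here 290 of the 775, or 37.4%, overlapped 1 kb either side of the start of a protein-coding gene, 198 (25.5%) lay inside a gene away from its start, and 287 (37.0%) lay between genes. Among all merged regions 43.2% lay at a gene start, and among those found only in both number 2 lists 29.6% did. The shares are descriptions of these regions and were not tested. Gained regions had a median width of 792 bp, against 703 bp for all regions. Their share within 2 kb of a region covered in all 4 lists was 9.42%, against 14.2% for those only in number 2. The share of regions gained ran between 1.55% and 3.9% over chromosomes 1 to 19 and X.

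**Figure D2:**
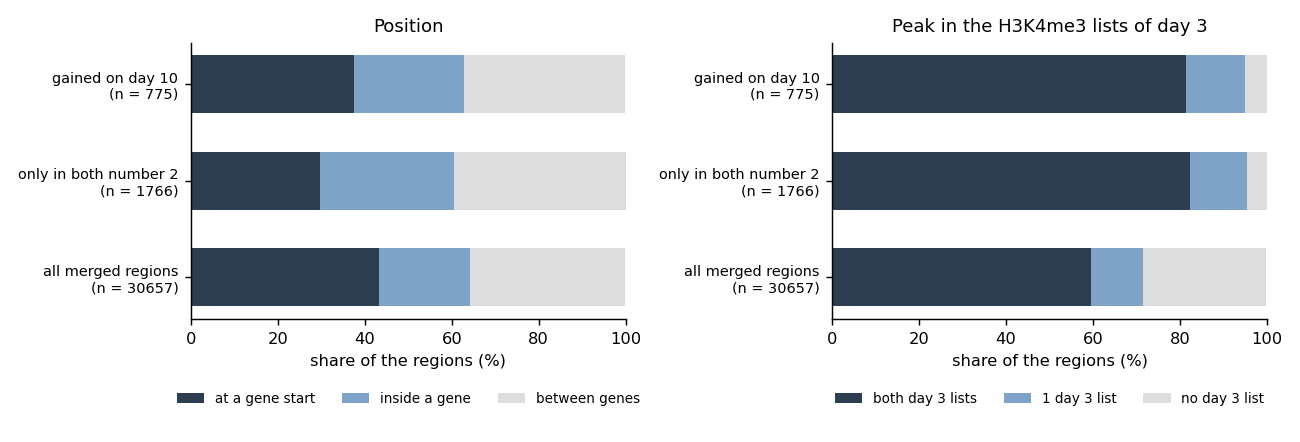
Share of the regions (%) by position (left) and by presence of an H3K4me3 peak in the day 3 lists (right), for the 775 regions gained on day 10, the 1766 regions only in both number 2 lists and all 30657 merged regions. Of the gained regions 37.4% lay at a gene start and 81.5% had a peak in both day 3 lists.

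The lists of day 3, which the gain rule did not use, held most of the gained regions. Both H3K4me3 lists of day 3 covered 632 of the 775, or 81.5%, 1 of them covered 104, and neither covered 39, or 5.03%. The share in both lists was 82.3% for the regions only in number 2 and 59.5% for all regions, so the gained regions did not stand apart from the crosswise ones in this. Both RUNX2 lists of day 3 covered 443 gained regions, or 57.2%, against 40.8% of those only in number 2 and 49.2% of all regions. The RUNX2 lists of day 10 and day 0 held 97 to 108 peaks each, with none at a gene start, and covered 1 of the gained regions. Of the 10 lost regions, 6 were covered in both day 3 lists.

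At the level of genes, 233 protein-coding genes had a peak within 1 kb of a start in both day 10 lists and in neither day 0 list. They were 1.06% of 21887 genes and 2.36% of the 9878 genes without a peak in either day 0 list. No gene met the opposite rule, which gives 0.0%. Crosswise, 429 genes, or 1.96%, were marked only in both number 2 lists, and 5, or 0.0228%, only in day 10 number 2 and day 0 number 1. Of the 233 genes, 182 had a peak in both H3K4me3 lists of day 3, 36 in 1 and 15 in neither. The share in both was 78.1%, against 88.8% of the genes marked only in number 2. Both RUNX2 lists of day 3 had a peak at 154 of the 233 genes, or 66.1%. This compares with 52.0% of the genes marked only in number 2 and 99.9% of those marked in all 4 lists. Under equal numbers of peaks 192 genes were gained, of which 53 were among the 233.

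Chondrocyte genes named as markers of the labelled state were mostly marked on day 10. Of the 10 markers, 8 had a peak in both day 10 lists, namely Sox9, Sox6, Col2a1, Acan, Col9a1, Matn3, Hapln1 and Snorc, against 3 in both day 0 lists, namely Sox9, Sox6 and Col2a1. Sox5 had no peak at its start in any of the 4 lists. Of the marker lists of other cell types, skeletal muscle had 0 of 13 genes marked in both lists on either day, and neither Myod1 nor Myog had a peak in any list. Adipocyte genes had 5 of 12 marked in both day 10 lists and 5 in both day 0 lists. Those of day 10 were Pparg, Cebpa, Cebpb, Lpl and Lipe, while Adipoq and Fabp4 were among those with no peak in any list. Tendon and fibroblast genes had 9 of 15 marked in both day 10 lists and 11 in both day 0 lists. The collagen I genes Col1a1 and Col1a2 and the tendon factor Scx were among those of day 10. Tnmd, Thbs4 and Dpt had no peak in any list. Pluripotency genes had 3 of 12 on day 10 and 2 on day 0. Those of day 10 were Sox2, Tfcp2l1 and Klf4, while Pou5f1 and Nanog were among those with no peak in any list. Endothelial genes had 5 of 12 on day 10 and 2 on day 0, haematopoietic genes 2 and 0 of 12, epithelial genes 2 and 1 of 12, and neuronal genes 1 and 2 of 12.

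Genes of the cartilage matrix made up the largest group of listed gains by count. Of 28 matrix genes, 23 had no peak at the start in either day 0 list, and 9 of these 23, or 39.1%, were gained, beside 2.36% of all genes unmarked on day 0. This list and the others were chosen with earlier results of these data known, so such a difference in shares is a description and cannot serve as support. In the crosswise pairing by number, 0 of 11 matrix genes unmarked in the number 1 lists were marked only in number 2. Only 18 of the 28 genes had a peak in any of the 4 lists. The others are among these 11 and could not meet the crosswise rule, so this 0 is a weak control. The 9 genes were Acan, Prelp, Col11a2, Hapln1, Col9a1, Snorc, Matn4, Col9a2 and Matn3. Under equal numbers of peaks 3 of 23 were gained, namely Acan, Prelp and Hapln1. No matrix gene was lost, and Epyc, Chad, Cnmd, Ucma, Cilp, Cilp2, Cytl1, Mia, Prg4 and Otor had no peak at a start in any of the 4 lists.

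Acan encodes aggrecan, the large proteoglycan that holds water in cartilage. Its region at chr7:79052204-79057460 was covered over 4586 and 5257 bp on day 10, against 0 and 0 bp on day 0. This was the longest gained region, it began upstream of the start, and on day 3 it was already covered over 5067 and 4695 bp. The fold enrichment over background that the authors' caller gave its best peak was 12.5 and 7.75 on day 10. Acan ranked among the 10 best gained regions at gene starts, and it was gained under each of the 6 alternative calls that used all 4 lists. In the RUNX2 lists of day 3 the region was covered over 501 and 1270 bp.

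Prelp encodes a leucine-rich repeat protein that anchors basement membrane and matrix, and its region was covered over 3448 and 4855 bp on day 10, against 0 and 0 bp on day 0. Hapln1 encodes the link protein that ties aggrecan to hyaluronan. Its gained region, just downstream of the start, was covered over 2130 and 2229 bp on day 10, against 0 and 0 bp on day 0. A second region just upstream of Hapln1 was covered over 864 and 1500 bp on day 10, against 0 and 236 bp on day 0, so this gene was not wholly unmarked in the day 0 lists. Snorc, a small cartilage membrane proteoglycan, had 1610 and 789 bp on day 10, against 0 and 0 bp on day 0. The 0 bp on day 0 is what the rule asks for, and among these 3 genes Prelp was covered furthest in both day 10 libraries.

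Among the gained genes were also collagens that assemble with collagen II. Col11a2, which encodes a chain of collagen XI, had 2377 and 2226 bp covered on day 10, against 0 and 0 bp on day 0. Col9a1, which encodes a chain of the collagen IX that coats the fibrils, had 1506 and 1855 bp on day 10, against 0 and 0 bp on day 0. On day 3 its region was covered over 642 and 250 bp, less than in either day 10 list, and neither RUNX2 list of day 3 had a peak there. Col9a2 had 744 and 1019 bp on day 10, against 0 and 0 bp on day 0, and was not gained when peaks with a −log10 q under 5 were left out. At the adaptor proteins that bridge fibrils and proteoglycans, Matn4 had 1093 and 766 bp and Matn3 430 and 812 bp on day 10, against 0 and 0 bp each on day 0. The Matn4 start lies in a window shared with a neighbouring gene.

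**Figure D3:**
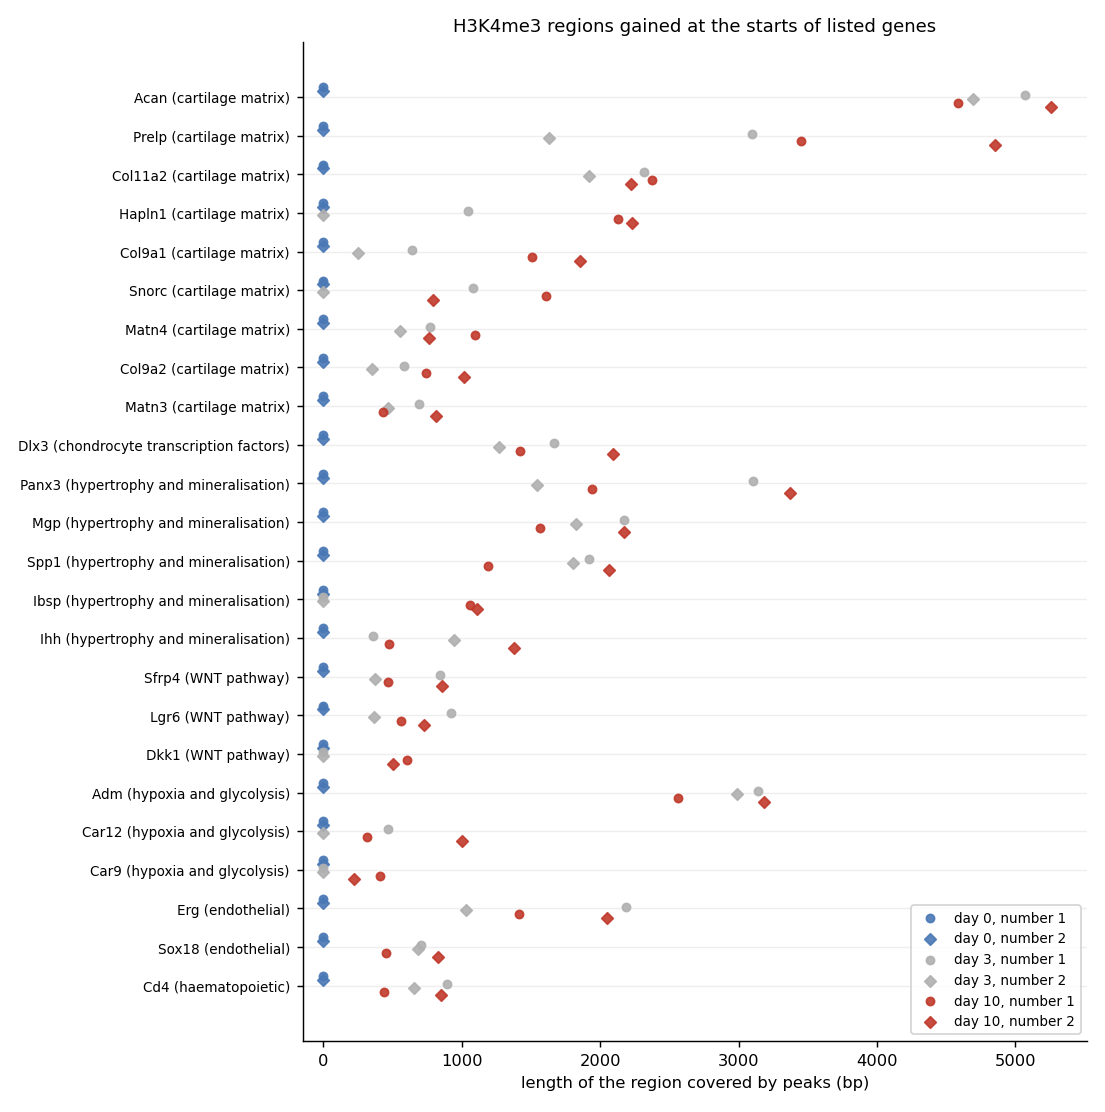
Length covered by peaks (bp, horizontal axis) of the gained region of each of the 24 listed genes gained, in each of 6 H3K4me3 libraries; circles are libraries number 1 and diamonds number 2. All day 0 points sit at 0 by the rule, Acan reaches 4586 and 5257 bp on day 10, and Ibsp, Dkk1 and Car9 are also at 0 in both day 3 libraries.

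Genes of hypertrophy and mineralisation were the next group, with 5 of 14 genes unmarked on day 0 gained, or 35.7%, beside 2.36% of all genes unmarked on day 0. In the crosswise pairing by number the count was 0 of 9. Only 15 of the 22 genes of this list had a peak in any of the 4 lists. The others are among these 9 and could not meet the crosswise rule, so this 0 is a weak control. Spp1 encodes osteopontin, a phosphoprotein of mineralised matrix, and was covered over 1187 and 2061 bp on day 10, against 0 and 0 bp on day 0. It was gained under each of the 6 alternatives, as Acan was, and the RUNX2 lists of day 3 covered it over 1579 and 1552 bp. The stretch printed above holds the letters TGTGGT, the core of the RUNX motif, on the opposite strand at 128 bases before the start. Ibsp encodes bone sialoprotein, and was covered over 1059 and 1109 bp on day 10, against 0 and 0 bp on day 0. Ibsp had no peak at its start in either H3K4me3 list or either RUNX2 list of day 3, and its peak in day 10 list number 1 was faint, with a fold enrichment of 2.6.

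Panx3, a channel protein of hypertrophic chondrocytes and osteoblasts, had 1942 and 3368 bp covered on day 10, against 0 and 0 bp on day 0. Mgp encodes matrix Gla protein, an inhibitor of calcification, with 1564 and 2174 bp on day 10, against 0 and 0 bp on day 0. Ihh encodes Indian hedgehog, the signal of prehypertrophic chondrocytes, with 471 and 1378 bp on day 10, against 0 and 0 bp on day 0. Ihh was not gained when peaks with a −log10 q under 5 were left out, and neither was Ibsp. The later markers did not meet the rule. Col10a1, the collagen of hypertrophic cartilage, and Bglap, which encodes osteocalcin, had a peak at the start in day 10 list number 2 alone, and Mmp13, the collagenase of late hypertrophy, had none in any of the 4 lists.

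Smaller groups followed. Of 10 WNT pathway genes unmarked on day 0, 3 were gained, or 30.0%, beside 2.36% of all genes unmarked on day 0. However, 4 of 12 met the crosswise rule by number, so the group did not stand apart from the crosswise count. The gained genes were Lgr6, Sfrp4 and Dkk1. Lgr6, a receptor for R-spondins, had 560 and 729 bp on day 10, and Sfrp4, a secreted WNT antagonist, 467 and 859 bp. Dkk1, an inhibitor of WNT co-receptors, had 603 and 504 bp, and all 3 genes had 0 and 0 bp on day 0. None of these 3 genes was gained under equal numbers of peaks. Dkk1 was also not gained when peaks with a −log10 q under 5 were left out. All 3 hypoxia and glycolysis genes unmarked on day 0 were gained, beside 2.36% of all genes unmarked on day 0. No gene of this list was unmarked in both number 1 lists, so the crosswise rule by number could not be met. Under equal numbers of peaks 1 of 3 was gained, and likewise with a −log10 q of at least 5. Adm, which encodes the vasodilator peptide adrenomedullin, had 2563 and 3182 bp on day 10, Car9 had 411 and 224 bp and Car12 313 and 1003 bp, against 0 and 0 bp each on day 0. Car9 and Car12 encode carbonic anhydrases of the cell surface, and neither was gained among peaks with a −log10 q of at least 5.

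Among the transcription factors of chondrocytes, 1 of 5 unmarked on day 0 was gained, beside 2.36% of all genes unmarked on day 0. Crosswise by number, 0 of 4 met the rule. The gained gene was the homeobox gene Dlx3, with 1420 and 2090 bp on day 10, against 0 and 0 bp on day 0. The endothelial list gained 2 of 8, beside the same 2.36%, and 1 of 7 met the crosswise rule by number. Erg, an ETS factor also known from articular cartilage, had 1417 and 2048 bp on day 10 and Sox18 456 and 828 bp, against 0 and 0 bp each on day 0. Of the 12 endothelial markers, Kdr, Flt1, Egfl7, Erg and Sox18 had a peak in both day 10 lists, while Pecam1, Cdh5, Tek, Tie1, Vwf and Esam had none in any of the 4 lists. The haematopoietic list gained 1 of 10 by the rule, Cd4, beside the same 2.36%, and 1 of 10 met the crosswise rule by number. Cd4 has no listed transcript start, so both ends of its span were used. Its gained region lay just outside the lower end of the span, and the nearest gene start was that of Gpr162. The peak can therefore not be assigned to a start of Cd4. Of the 12 haematopoietic markers, Spi1 and, by this shared window, Cd4 had a peak in both day 10 lists. Ptprc, Cd3e, Cd68, Gata1, Itgam, Lyz2 and Csf1r were among those with none in any of the 4 lists. The part of other cell types in these gains was not tested. Lists for BMP and TGF-beta signalling, FGF and IGF signalling, collagen modification, glycosaminoglycan synthesis, matrix proteases, the cell cycle, housekeeping, tendon, muscle, fat, neurons, epithelium and pluripotency gained 0 genes. Over all lists, 24 of 145 genes unmarked on day 0 were gained, beside 2.36% of all genes unmarked on day 0.

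The gained regions were also ranked by the authors' −log10 q within each day 10 list. The 10 best-ranked at gene starts were Ppp1r1b, Scube1, Spon2, Acan, Aldoc, Prickle3, Panx3, Col11a2, Slc8a3 and Rcbtb1. Ppp1r1b and Rcbtb1 were not among the 233 gained genes, although a region at a start was gained. Ppp1r1b, which encodes a regulator of protein phosphatase, was covered over 1745 and 2284 bp on day 10, against 0 and 0 bp on day 0, at a start of which the gene has more than 1. Scube1, a secreted EGF-domain protein, had 1117 and 1984 bp on day 10, and Spon2, a secreted matrix protein, 2140 and 2200 bp, against 0 and 0 bp each on day 0. Aldoc encodes a glycolytic aldolase and had 1054 and 1352 bp on day 10, against 0 and 0 bp on day 0. All 10 had a peak in both H3K4me3 lists of day 3. The share was 81.5% among all gained regions and 82.3% among those only in number 2.

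Away from gene starts, the best-ranked gained regions lay near Smim5, H2-Q1, Smpd3, Il16, Nlrc5, Eci2, Xcl1 and Ptpn18, and 2 had no protein-coding gene start within 50 kb. The region inside Smpd3, a neutral sphingomyelinase gene needed for mineralisation of cartilage and bone, lay 29146 bp from its start and was covered over 2946 and 2800 bp on day 10, against 0 and 0 bp on day 0. It was covered over 1763 and 912 bp on day 3, and neither RUNX2 list of day 3 covered it. The region near Il16, inside a gene and 9647 bp from that start, had 1895 and 3389 bp on day 10, against 0 and 0 bp on day 0. The region at chr6:51163622-51167007, between genes, had 3036 and 3307 bp on day 10, against 0 and 0 bp on day 0, and 3386 and 3194 bp on day 3. Each of these 3 regions was covered further than the median gained region, which had 402 and 752 bp on day 10.

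None of the 10 lost regions lay at a gene start. They had 5 members inside genes and 5 between genes, and 5 of the 10 had a protein-coding gene start within 50 kb, near Mapre2, Cacna1a, Qrfp, Enc1 and Snai1. The region near Snai1, a repressor of epithelial genes, was covered over 0 and 0 bp on day 10, against 398 and 426 bp on day 0, and over 248 and 206 bp on day 3. The region near Enc1 was covered over 0 and 0 bp on day 10, against 498 and 411 bp on day 0. Lost regions numbered 4 with peaks of a −log10 q of at least 5 and 81 under equal numbers of peaks, so this count depended on how the lists were made comparable.

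Among regions marked on both days, a share was longer on day 10. Of 11554 regions covered in all 4 lists, 272, or 2.35%, were widened, meaning that the smaller covered length of day 10 was at least 1.5 times the greater of day 0, and 0, or 0.0%, were narrowed. Crosswise by number, 753, or 6.52%, were wider in number 2, and 25, or 0.216%, were wider in day 10 number 2 and day 0 number 1. With each length divided by its list's median, 182 regions were widened and 11 narrowed, against 152 wider in number 2 and 6 in number 1 in the crosswise pairing. Of the 272, 148 were widened on that scale too. Widened regions had a median covered length of 1220 and 1670 bp on day 10, against 550 and 626 bp on day 0. All regions in the 4 lists had 1270 and 1830 bp on day 10, against 1110 and 1440 bp on day 0. The widened regions were thus shorter than these on day 0 and near them on day 10. They were picked by these same lengths, so the rule itself favours regions short on day 0. Without day 10 list number 1 the widened regions came to 2158, without day 0 list number 2 to 2050 and without day 0 list number 1 to 704.

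Widened regions lay at gene starts in 206 of 272 cases, or 75.7%, against 87.3% of the regions in all 4 lists. On day 3 their median covered length was 1530 and 1380 bp, and that of all regions in the 4 lists was 1790 and 1640 bp. Both RUNX2 lists of day 3 covered 271 of the 272, beside 99.5% of the regions in all 4 lists, a share near the background. Genes with a widened region numbered 213 of 10785 with a region in all 4 lists, or 1.97%. Of the listed genes 17 of 235 had one.

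The greatest ratios belonged to Bmp8a, Sdk2, Ackr3, Wscd2, Egln3, Sox6, Mettl7a1, Rasd1, Col27a1 and Rgs16. Bmp8a, which encodes a bone morphogenetic protein, was covered over 2380 and 3150 bp on day 10, against 421 and 463 bp on day 0. Ackr3, an atypical chemokine receptor, had 3036 and 3681 bp on day 10, against 649 and 490 bp on day 0. Wscd2 had 3747 and 3319 bp on day 10, against 315 and 780 bp on day 0. The day 0 peaks of Wscd2 lay outside the 1 kb window of its start, so it was also among the 233 gained genes. The covered lengths of day 10 and day 0 did not overlap at any of these widened regions, which the rule requires.

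Of the 4 cartilage matrix genes with a region in all 4 lists, the 3 collagen genes were widened, beside 1.97% of all genes, and 1 matrix gene was wider in number 2 in the crosswise pairing. Col27a1, which encodes a fibrillar collagen of cartilage, had 3803 and 4325 bp covered on day 10, against 1009 and 649 bp on day 0. Col11a1, the other main chain of collagen XI, had 4773 and 4966 bp on day 10, against 507 and 2012 bp on day 0. Col2a1, which encodes the main collagen of cartilage, had 3288 and 4716 bp on day 10, against 1926 and 2183 bp on day 0. Its ratio of 1.51 lay just inside the limit, and it was not widened relative to the lists' medians.

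**Figure D4:**
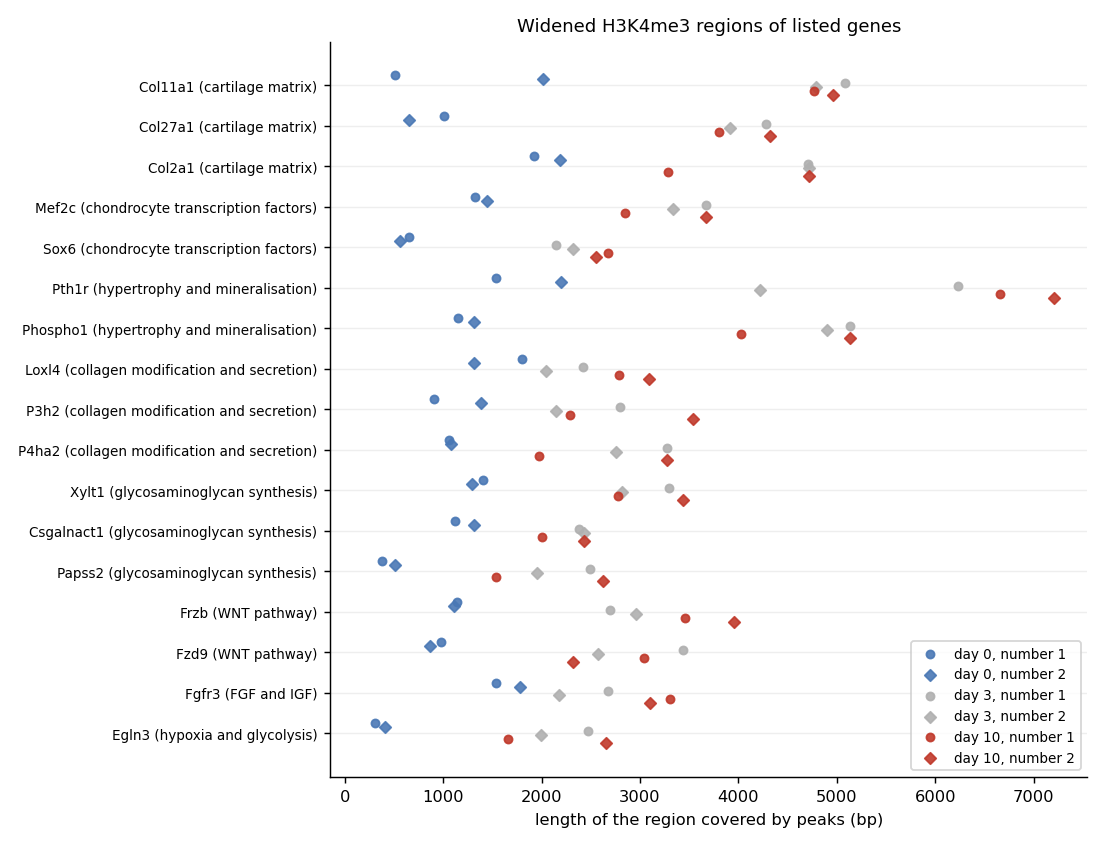
Length covered by peaks (bp, horizontal axis) of the widened region of each of the 17 listed genes, in each of 6 H3K4me3 libraries; circles are libraries number 1 and diamonds number 2. Pth1r is longest on day 10, at 6664 and 7203 bp against 1537 and 2193 bp on day 0, and the day 10 points of each gene lie to the right of its day 0 points, which the rule requires.

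In the hypertrophy list 2 of 8 genes with a region in all 4 lists were widened, beside 1.97% of all genes with such a region. Pth1r encodes the receptor of PTHrP, the signal that holds chondrocytes back from hypertrophy, and was covered over 6664 and 7203 bp on day 10, against 1537 and 2193 bp on day 0. This was the longest of the widened regions by its shorter day 10 library. Phospho1, a phosphatase that starts mineralisation in matrix vesicles, had 4027 and 5138 bp on day 10, against 1146 and 1317 bp on day 0. Among the chondrocyte transcription factors 2 of 19 were widened, beside the same 1.97%, and 1 was wider in number 2 in the crosswise pairing. Sox6, a partner of SOX9 on cartilage enhancers, had 2671 and 2550 bp on day 10, against 648 and 561 bp on day 0. Mef2c, a factor of hypertrophy, had 2845 and 3676 bp on day 10, against 1320 and 1444 bp on day 0.

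Genes that build and modify the matrix had members that widened and none that were gained. In the glycosaminoglycan list 3 of 20 were widened, beside 1.97% of all genes with a region in all 4 lists, and 0 of 2 gained. Papss2, which makes the sulfate donor of proteoglycans, had 1535 and 2622 bp on day 10, against 382 and 511 bp on day 0. Xylt1, which starts the chains, had 2773 and 3436 bp on day 10, against 1409 and 1292 bp on day 0, and Csgalnact1, which begins chondroitin sulfate, 2000 and 2434 bp, against 1123 and 1316 bp on day 0. In the collagen modification list 3 of 23 were widened, namely the prolyl hydroxylase genes P4ha2 and P3h2 and the lysyl oxidase gene Loxl4. P4ha2 had 1975 and 3275 bp on day 10, against 1064 and 1076 bp on day 0. In the crosswise pairing by number, 1 gene of each of these lists was wider in number 2.

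In the signalling lists, Frzb, a secreted WNT antagonist of cartilage, had 3455 and 3958 bp on day 10, against 1142 and 1112 bp on day 0. Fzd9, a WNT receptor, had 3046 and 2322 bp on day 10, against 979 and 871 bp on day 0. Fgfr3, the receptor that restrains growth plate chondrocytes, had 3303 and 3101 bp on day 10, against 1536 and 1785 bp on day 0. The WNT list thus had 2 of 21 widened and the FGF and IGF list 1 of 16. The share of all genes with a region in all 4 lists was 1.97%. However, the crosswise pairing by number had 2 WNT genes and 4 FGF and IGF genes wider in number 2. Egln3, an oxygen-sensing prolyl hydroxylase, had 1661 and 2656 bp on day 10, against 303 and 414 bp on day 0. Col11a1, Col27a1, Papss2, Phospho1 and Pth1r were widened under each of the 4 alternatives that used all 4 lists.

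Several regulators of the programme were neither gained nor widened. Sox9, the master regulator of chondrocytes, was marked in all 4 lists and was covered over 4897 and 6373 bp on day 10, against 3608 and 3786 bp on day 0, a ratio of 1.29 that did not reach 1.5. Runx2 had 2657 and 4280 bp on day 10, against 601 and 2093 bp on day 0, also without overlap between the days, with a ratio of 1.27. The longer region of Sp7, an osteoblast factor, had 4410 and 5358 bp on day 10, against 3692 and 5161 bp on day 0, and the days overlapped. Alpl, the phosphatase of mineralisation, had 1734 and 3249 bp on day 10, against 941 and 2404 bp on day 0, and the days overlapped too.

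Promoters of gained genes held a number of CG dinucleotides between that of promoters marked throughout and that of promoters never marked, a description without a test. In the 300 bases from 250 before to 50 after a start, gained promoters held a median of 10 CG dinucleotides (quartiles 6 and 19, 190 promoters of 171 genes). Promoters of widened regions held 21 (199 promoters), those covered in all 4 lists 23 (quartiles 16 and 30), those covered in none 3, and those marked only in both number 2 lists 19. Gained promoters with at most 5 CG dinucleotides made up 21.1%, against 3.21% of those in all 4 lists and 69.2% of those in none. Individual genes spanned the range, with 31 in Acan, 30 in Ihh and 24 in Lgr6, but 9 in Adm, 3 in Spp1 and in Hapln1 and 0 in Col9a1. The table of promoters lacks some genes, Col2a1 and Sox9 among them.

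**Figure D5:**
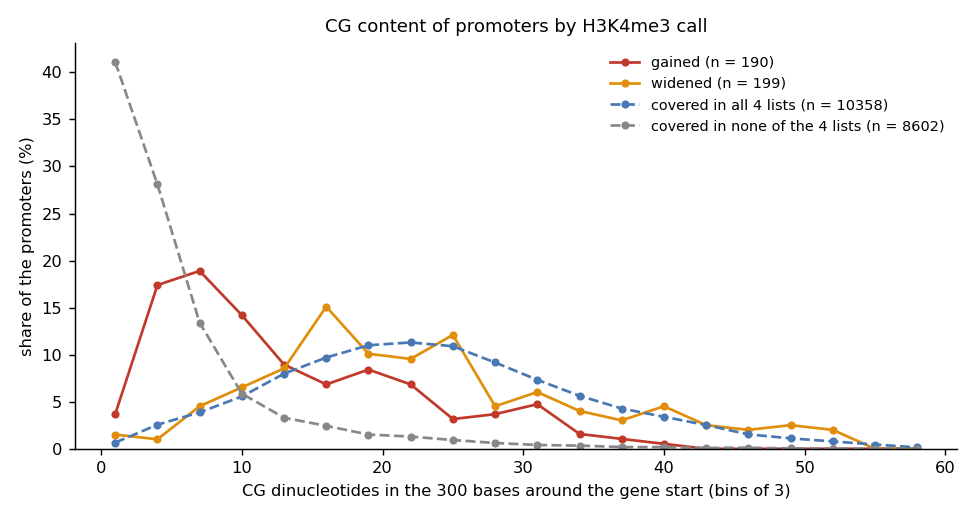
Share of promoters (%, vertical axis) by the number of CG dinucleotides in the 300 bases around the start, in bins of 3, for gained, widened, always covered and never covered promoters. Gained promoters, with a median of 10, lie between those never covered, with a median of 3, and those covered in all 4 lists, with a median of 23.

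The letters TGTGGT, searched on both strands of the same windows, were in 15.8% of gained promoters, 13.1% of widened ones, 10.7% of those in all 4 lists, 20.4% of those in none and 14.8% of all 21006 promoters. The letters TATAA, also on both strands, were in 21.1% of gained promoters, 9.05% of widened ones, 11.1% of those in all 4 lists, 35.8% of those in none and 21.8% of all. The gained share was near that of all promoters for both. A match is a description of the letters in this window, not of a bound site.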

How the data were processed

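ATDC5 chromatin was precipitated for H3K4me3 or RUNX2 and sequenced with reads of 75 bp, per the labels. Reads were aligned and peaks called by the authors with tools that, per the submitters' processing notes, include MACS2, HISAT2 2.2.0, Trim Galore and FastQC; settings, control and depth: not given in the sources used here. The deposited lists give each peak's position and summit offset, a score that is 10 times the −log10 q without decimals, the fold enrichment as a ratio to the local background, and the −log10 p-value and −log10 q-value. The authors' fold and −log10 q served only to describe or rank peaks within 1 list. The notes name GRCm39, but 44.3 to 78.4% of summits lay within 1 kb of a RefSeq GRCm38 gene start and 3.85 to 4.71% after a shift of 20 kb, so positions were read as GRCm38, counted from 1.

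Peaks on assembled chromosomes were merged, and 1 bp of overlap counted as covered. Gene windows were 1 kb either side of the transcript starts listed for 17492 of 21887 protein-coding genes, and of both span ends for the other 4395. Counts carry no test, since an exact permutation of 2 against 2 libraries cannot pass 0.05. Named genes were all listed genes gained, lost, widened or narrowed, the 10 best-ranked gained regions at and away from starts, the lost regions, the 10 widened regions of greatest ratio, and 12 fixed genes. The members and the 21 gene lists (425 genes, all found) were chosen with earlier results of these data known. Calculations used Python 3.11.15, numpy 2.4.6, pandas 2.3.3 and scipy 1.17.1, and the calls were tested on simulated lists. Alternatives were cuts on −log10 q, equal list lengths, other windows and merging, and leaving out each library.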

Additional observations from a re-analysis of the deposited data

How the results depend on the processing

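Gained regions numbered 506 and lost regions 81 with the lists cut to equal numbers of peaks, which also gave 15 lost genes and 1 narrowed region. Lost regions numbered 4 with a −log10 q of at least 5 and 4 with peaks up to 1000 bp apart merged. Lost genes numbered 32 where a summit in the window was required. Narrowed regions numbered 11 relative to the lists' medians, and widened ones 68 at a ratio of at least 2. Leaving out each library in turn, which relaxes the rule to 3 lists, gave 853 to 13028 gained regions, 10 to 2282 lost regions, 249 to 921 gained genes, 0 to 108 lost genes, 273 to 2158 widened and 3 to 203 narrowed regions. The log2 ratio of peak numbers ran from -0.19 to 0.75, that of covered length from -0.05 to 0.84, and the difference in the share of peaks at gene starts from -27.3 to 4.19 percentage points; all 3 changed direction without day 10 library number 2. With the libraries paired by number as a replicate block, these were 0.31, 0.42 and -11.6, with an exact permutation p of 0.5, the smallest such a design allows; nothing in the labels says the numbers pair the samples. The cause of these movements was not tested. Among the gained genes, 183 of 233 were also gained with a −log10 q of at least 5, and 18 of the 24 listed ones; under equal numbers 9 of the 24 were. Of the 17 listed widened genes, 14 were widened under equal numbers and 11 relative to the lists' medians. Windows set at both span ends of every gene and at listed starts only, chosen after seeing the data, gave 239 and 171 gained genes.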

Other observations

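Some gained genes outside the lists were picked after their values were seen, so their number supports nothing. Of 13 such genes of the interferon response and innate immunity, 9 had a peak in both H3K4me3 lists of day 3. Both RUNX2 lists of day 3 had a peak at 12 of them. Among all 233 gained genes these shares were 78.1% and 66.1%. Lgals3bp, a secreted lectin-binding protein, was covered over 681 and 2063 bp on day 10, against 0 and 0 bp on day 0. Oasl2, an oligoadenylate synthetase-like antiviral gene, had 568 and 1375 bp on day 10, against 0 and 0 bp on day 0. Ifit1, an antiviral RNA-binding protein, had 657 and 1384 bp on day 10, against 0 and 0 bp on day 0, and Icam1, an adhesion molecule, 681 and 702 bp, against 0 and 0 bp on day 0. Under equal numbers of peaks 2 of the 13 genes were gained, beside 22.7% of all 233 gained genes.

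A further 11 genes with ties to skeletal tissue were picked in the same way. Tmem119, a membrane protein of osteoblasts, had 2992 and 4166 bp covered on day 10, against 0 and 0 bp on day 0, and 1763 and 575 bp on day 3. Itga10, which encodes a collagen-binding integrin chain of chondrocytes, had 423 and 1352 bp on day 10, against 0 and 0 bp on day 0. Col24a1, a fibrillar collagen, had 330 and 459 bp on day 10, against 0 and 0 bp on day 0, with no peak in either list of day 3. Rarb, a retinoic acid receptor, had 801 and 1097 bp on day 10, against 0 and 0 bp on day 0. Of the 11, 9 had a peak in both H3K4me3 lists of day 3 and 2 were gained under equal numbers of peaks. Among all 233 gained genes these shares were 78.1% and 22.7%. A region upstream of Col27a1, 12272 bp from its start, was gained with 3521 and 2756 bp on day 10, against 0 and 0 bp on day 0, beside the widened region at that gene's start.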
